A study of Mus musculus with 35 samples.

Results

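Striatal RNA-seq libraries of 18 mice heterozygous for the Htt Q111 knock-in allele (Htt Q111/+) were compared by the length of the CAG repeat that each mouse inherited. The libraries were split by the letter that opens the mouse ID: 8 mice of series V carried 131 to 144 repeats (median 137.5) and 10 mice of series A or Z carried 110 to 118 repeats (median 111.5). The series as a whole holds 35 libraries, 1 per mouse, and the other 17 came from Htt+/+ mice with 7 repeats, 8 of series V and 9 of series A or Z, in which the same split gives the difference between the ID series without the knock-in allele. All mice were 21.7 to 23 weeks old and received no treatment other than the genetic manipulations.

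Among the carriers, 3 V mice and 4 A/Z mice were Hdac2 WT (Hdac2+/+, Cre-), and 5 V mice and 6 A/Z mice were Hdac2 KO (Hdac2-/-, Cre+). Among the Htt+/+ mice, 5 V and 3 A/Z mice were Hdac2 WT, and 3 V and 6 A/Z mice were Hdac2 KO. In Hdac2 KO mice a floxed Hdac2 allele is deleted by the D9-Cre transgene, which is driven by a fragment of Ppp1r1b and is expressed in medium-spiny neurons (MSNs), so other striatal cells keep Hdac2. The floxed line came from a mixed C57BL/6 and 129 background and was not fully backcrossed. In carriers repeat length and ID series change together, so an effect of the longer repeat and an effect of the series cannot be told apart within the carriers alone. The contrast with the Htt+/+ mice bears on the series. A series effect that acts only in carriers cannot be told apart from repeat length by any comparison here.

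Huntington disease is caused by an expanded CAG repeat in the first exon of HTT, which lengthens a polyglutamine tract in the huntingtin protein. The longer the inherited repeat, the earlier the disease begins, and the MSNs of the striatum are the most vulnerable cells. MSNs fall into a direct pathway, with Drd1a and the substance P precursor gene Tac1, and an indirect pathway, with Drd2, Adora2a and the enkephalin precursor gene Penk. Loss of mRNA for receptors, cAMP and calcium signalling proteins of MSNs is a known early change in knock-in striata.

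The start of the mouse Htt coding sequence is shown because it holds the repeat that the comparison turns on. The letters are the first 108 bases of transcript Htt-201 (GRCm38, plus strand of chromosome 5, gene at 34761740 to 34912534), and the capitals mark the glutamine codons at coding bases 52 to 72, in exon 1.
Htt: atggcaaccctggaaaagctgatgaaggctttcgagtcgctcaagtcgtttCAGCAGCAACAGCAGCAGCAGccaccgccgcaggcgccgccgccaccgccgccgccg
The run has 7 codons, of which 6 are CAG and 1 is CAA, and its longest stretch of unbroken CAG has 4 codons. In the knock-in allele, as the paper describes it, human exon 1 with a part of its intron stands in place of mouse sequence. It holds the long repeat given above for each series, and its sequence was not used here.

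The libraries held 50970712 to 77867348 counts, which were scaled here to per-million counts (CPM) with TMM normalization factors. Hdac2, counted over the whole gene although the deletion takes out only part of it in MSNs, was at 95.9 to 112 CPM in the 15 Hdac2 WT libraries and 89.4 to 101 CPM in the 20 Hdac2 KO libraries. A pseudogene, Gm8540, bears on the ID labels: it had 0 counts in all 8 V carriers and all 8 V Htt+/+ mice, against 8 to 31 counts in the 10 A/Z carriers and 7 to 23 in the 9 A/Z Htt+/+ mice. The deep-layer and upper-layer cortical projection neuron markers stood apart in 1 library, Htt Q111/+ Hdac2 WT A/Z replicate 7, a female with 113 repeats. Their 12 tested members summed to 705 CPM there, against 164 to 358 CPM in the other 34 libraries, and its Gm8540 count was 17, within the range of its own series. For a number of results that changed when this library was left out, the value without it is given beside the result.

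The first question was how striata with the longer repeat differed from those with the shorter repeat among carriers. Of 17335 genes tested, 538 rose (3.1%) and 854 fell (4.93%) in V carriers against A/Z carriers, which together is 8.03%. A gene was called where the quasi-likelihood test of edgeR, with Hdac2 genotype and sex as covariates, gave a p adjusted by Benjamini-Hochberg over all genes under 0.05. The genes that fell included those for enkephalin, the dopamine D2 and adenosine A2a receptors, the sodium channel subunit Scn4b and regulators of G protein signalling. The changes were small, with a median absolute log2 fold change of 0.26 over the genes called. With the RNA extraction date as a further term 132 genes were called, and with surrogate variables in place of sex 835 were, of which 420 were among those called with sex. The 6 extraction dates divide the series unevenly, and 2 of them hold carriers of both series. Without Hdac2 WT V replicate 5, the only female among the V carriers, 823 genes were called. Sex was divided unevenly between the series, with 5 females among the 10 A/Z carriers. Among Htt+/+ mice 2 of 8 in series V and 5 of 9 in series A/Z were female.

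Penk, the precursor of enkephalin in indirect-pathway MSNs, was at 992 to 1301 CPM (median 1195) in the 8 V carriers and 1171 to 1731 CPM (median 1573) in the 10 A/Z carriers. The only A/Z carrier within the V range was replicate 7 of the Hdac2 WT group, the library with cortical markers, and every Htt+/+ library lay above all V carriers. The log2 fold change between carriers was -0.43 ± 0.06 (adjusted p = 5.08e-06, edgeR quasi-likelihood test). Adora2a, the adenosine A2a receptor of the same neurons, was at 247 to 374 CPM (median 319.8) in V carriers and 293 to 434 CPM (median 401) in A/Z carriers, ranges that overlapped, with a log2 fold change of -0.30 ± 0.08 (adjusted p = 0.0109, edgeR quasi-likelihood test). Drd2, the dopamine D2 receptor, was at 151 to 202 CPM (median 163) in V carriers and 177 to 212 CPM (median 201) in A/Z carriers, ranges that overlapped through 1 high V carrier, with a log2 fold change of -0.26 ± 0.05 (adjusted p = 0.00156, edgeR quasi-likelihood test). With extraction date as a term the fold changes were -0.22 for Adora2a and -0.21 for Drd2, and neither passed.

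Drd1a, the dopamine D1 receptor, was at 306 to 377 CPM (median 352) in V carriers and 308 to 443 CPM (median 398) in A/Z carriers, and it was lower by a log2 fold change of -0.20 ± 0.05 (adjusted p = 0.00892, edgeR quasi-likelihood test). Tac1, the precursor of substance P, was higher in V carriers, at 313 to 439.6 CPM (median 396) against 233 to 359 CPM (median 329) (log2 fold change 0.18 ± 0.05, adjusted p = 0.0243, edgeR quasi-likelihood test). The lowest Tac1 value among A/Z carriers belonged to the same replicate 7, and without it the fold change was 0.16. In Htt+/+ mice Tac1 was at 295 to 408 CPM (median 323) in series V and 278 to 342 CPM (median 308) in series A/Z. Without replicate 7 its fold change there was 0.14, which did not pass, and the series effects differed by 0.02, which did not pass either. Ppp1r1b, which encodes the phosphatase inhibitor DARPP-32 and whose regulatory sequence drives the Cre transgene, was at 1014 to 1577 CPM (median 1391.5) in V carriers and 1148 to 1799 CPM (median 1439.7) in A/Z carriers (log2 fold change -0.20 ± 0.06, adjusted p = 0.03, edgeR quasi-likelihood test). This call was lost when any 1 of 5 carrier libraries was left out.

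Of the signalling genes, Rgs4, a brake on G protein signalling, was at 679.9 to 1025 CPM (median 799.9) in V carriers and 990.2 to 1282 CPM (median 1152) in A/Z carriers, ranges that overlapped only at their ends, with a log2 fold change of -0.47 ± 0.07 (adjusted p = 4.66e-05, edgeR quasi-likelihood test). Rgs9, whose splice form in striatum shortens dopamine receptor signalling, was at 576 to 737 CPM (median 645) against 564 to 902 CPM (median 806) (log2 fold change -0.30 ± 0.05, adjusted p = 0.000538, edgeR quasi-likelihood test). The V carriers lay within the span of the A/Z carriers for Rgs9, whose lowest A/Z value was below all V carriers. Scn4b, a beta subunit of sodium channels, was at 1168 to 1793 CPM (median 1457) against 1599.5 to 2460.4 CPM (median 1883) with an overlap at the ends (log2 fold change -0.38 ± 0.08, adjusted p = 0.00318, edgeR quasi-likelihood test). Pde10a, the cyclic nucleotide phosphodiesterase enriched in MSNs, was at 458 to 722 CPM (median 657) against 528 to 911 CPM (median 721) ranges that overlapped widely, and did not pass (log2 fold change -0.25 ± 0.09, adjusted p = 0.0642, edgeR quasi-likelihood test). Without the library with cortical markers Pde10a passed, at -0.29 (adjusted p = 0.0152, edgeR quasi-likelihood test), and so did the difference of the series effects of Rgs9, at -0.30 (adjusted p = 0.037, edgeR quasi-likelihood test). With extraction date as a term the carrier calls of Drd1a (-0.10), Ppp1r1b (-0.19), Rgs4 (-0.33), Rgs9 (-0.28) and Scn4b (-0.27) were lost too, while those of Penk (-0.35) and Tac1 (0.27) held.

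Htt itself was at 119 to 189.8 CPM (median 161) in V carriers and 170.4 to 189 CPM (median 181) in A/Z carriers. The ranges overlapped and the log2 fold change of -0.13 ± 0.05 did not pass (adjusted p = 0.0777, edgeR quasi-likelihood test). In Htt+/+ mice it was at 188 to 212 CPM (median 197) in series V and 173 to 213 CPM (median 192) in series A/Z. Counts here do not separate the knock-in from the wild-type allele, and how reads from the human part of the knock-in allele were counted was not tested. Of 125 genes tested within 5 Mb of Htt, 12 differed between V and A/Z carriers, beside 8.03% of all genes, and 1 between V and A/Z Htt+/+ mice, and no difference between the effects passed.

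The same split of the Htt+/+ mice measured the difference between ID series without the expanded repeat. It called 427 genes (2.46%), 174 higher and 253 lower in V mice, with a median absolute log2 fold change of 0.37. Of these, 219 were also called in carriers, which is 51.3% of the Htt+/+ list and 15.7% of the carrier list, and in all 219 the direction was the same, 80 higher and 139 lower in V mice. Of all genes called in carriers, 1235 (88.7%) had the same sign in Htt+/+ mice, where their median log2 fold change, signed by the direction in carriers, was 0.11. Across the 17335 genes the fold changes of both comparisons had a Pearson r of 0.54. Genes are not independent, and the comparisons share no libraries but share the dispersion and sex terms of 1 fit. Adding the extraction date left 22 genes called in Htt+/+ mice, and leaving out 1 of 4 Htt+/+ libraries (Hdac2 WT A/Z replicate 9, Hdac2 WT V replicate 7, Hdac2 KO V replicates 3 and 4) left 224 to 264.

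Genes that differed between series in both Htt genotypes included several with large changes. Abi3bp, which encodes an extracellular matrix protein, was at 7.56 to 12.3 CPM (median 9.95) in V carriers and 16.6 to 31.5 CPM (median 25.1) in A/Z carriers, and at 9.46 to 21.6 CPM (median 15.7) and 24.3 to 32.9 CPM (median 28.7) in V and A/Z Htt+/+ mice. In neither Htt genotype did the series overlap, and the log2 fold changes were -1.20 ± 0.13 and -0.79 ± 0.13. Hddc3, which encodes a metal-dependent phosphohydrolase, was at 8.89 to 29.3 CPM (median 16.7) in V carriers and 7.74 to 9.89 CPM (median 8.96) in A/Z carriers, with 7.80 to 28.4 CPM (median 16.5) and 7.49 to 9.52 CPM (median 8.75) in the corresponding Htt+/+ mice. Its values in V mice were spread widely in both Htt genotypes, and the log2 fold changes were 0.97 ± 0.16 and 1.01 ± 0.18. Ddit4l, a regulator of mTOR signalling, fell by more in carriers (-1.16 ± 0.11) than in Htt+/+ mice (-0.54 ± 0.11), but the difference did not pass (adjusted p = 0.121, edgeR quasi-likelihood test). With extraction date as a term that difference passed, at -0.67, and the Htt+/+ calls of Ddit4l (-0.21) and Abi3bp (-0.57) were lost. Serpina3n, a serine protease inhibitor gene induced in reactive astrocytes, was at 4.57 to 6.15 CPM (median 5.30) in V carriers and 3.46 to 49.4 CPM (median 5.85) in A/Z carriers (log2 fold change -1.66 ± 0.50). In Htt+/+ mice it was at 3.19 to 5.39 CPM (median 4.37) in series V and 4.73 to 38.9 CPM (median 35.0) in series A/Z. Its carrier call was lost when any 1 of 5 carrier libraries was left out. With extraction date as a term its calls in carriers (-1.67) and in Htt+/+ mice (-2.77) were both lost.

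Some genes called in both Htt genotypes lay near each other. The 2 longest runs on the nuclear chromosomes, with gaps of at most 3 Mb, were 8 genes on chromosome 9 between 106148687 and 110984066, among them Sema3f, Trex1 and Lrrc2, and 7 genes on chromosome 10 between 20148471 and 25523519, among them Map7, Enpp1 and Gm8540. The first span holds 130 tested genes and the second 29, and of all 17335 tested genes 219 were called in both Htt genotypes. These runs were picked for their length, and whether they exceed what chance gives was not tested. Coordinates are those of GRCm38.

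**Figure D1:**
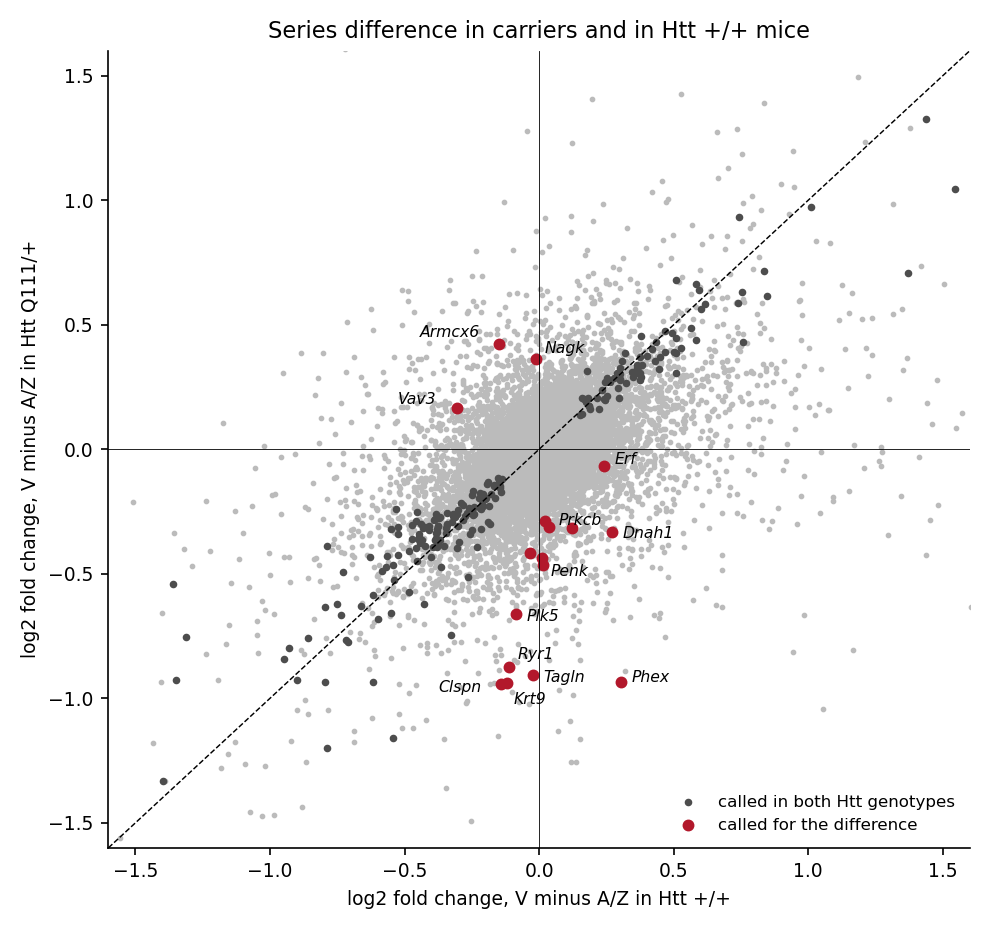
Log2 fold change between V and A/Z carriers (vertical axis) against that between V and A/Z Htt+/+ mice (horizontal axis), 1 point per gene, with the dashed line marking equal changes; 57 of 17335 genes beyond 1.6 on either axis are not shown. The 219 dark genes, called in both Htt genotypes, lie along the line, whereas most of the 17 red genes, called for the difference of the effects, lie near 0 on the horizontal axis.

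The third comparison asked which genes differed between series more in carriers than in Htt+/+ mice, as the difference of the series effects. It called 17 genes (0.0981%), 14 with a more negative and 3 with a more positive effect in carriers, and 1405 genes had an unadjusted p under 0.05 (8.1%). Of the 17 genes, 15 were also called in carriers and 2, Erf and Vav3, in Htt+/+ mice. With extraction date as a term 16 of them were called for the difference, while the carrier calls of Ryr1, Tagln, Phex, Dnah1, Nrep, Armcx6 and Nagk were lost. DESeq2 called 50 genes and the fit with surrogate variables 462, with all 17 among each. The count ranged from 8 to 28 when 1 library was left out: 8 without Htt+/+ Hdac2 WT A/Z replicate 2, 9 without Htt+/+ Hdac2 KO V replicate 4, and 28, including all 17, without the library with cortical markers. It was 1 in males alone, 0 without the A mice and 19, of which 5 were among the 17, without the Z mice.

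The 14 genes that were lower for the difference included signalling genes of MSNs. Arpp19, a cAMP-regulated inhibitor of protein phosphatase 2A (chromosome 9, 75037614 to 75057710), was at 430.4 to 554 CPM (median 492) in V carriers and 598 to 716 CPM (median 648) in A/Z carriers, with 618 to 791 CPM (median 719) and 596 to 826 CPM (median 681) in V and A/Z Htt+/+ mice. The carriers did not overlap by series and the Htt+/+ mice did. Carriers differed by -0.42 ± 0.05, Htt+/+ mice by -0.03 ± 0.05, and the effects differed by -0.38 ± 0.07 on the log2 scale (adjusted p = 0.0101, edgeR quasi-likelihood test).

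Prkcb, which encodes protein kinase C beta (chromosome 7, 122288751 to 122634402), was at 508 to 649.7 CPM (median 629) in V carriers, 708 to 871 CPM (median 757) in A/Z carriers, 709.7 to 929 CPM (median 832) in V Htt+/+ mice and 717 to 878 CPM (median 767) in A/Z Htt+/+ mice. All 8 V carriers lay below every other library. The effects differed by -0.35 ± 0.06 (adjusted p = 0.00639, edgeR quasi-likelihood test). Penk (chromosome 4, 4133531 to 4138819), whose carrier values are given above, was at 1783 to 2071 CPM (median 1948) in V Htt+/+ mice and 1662 to 2046 CPM (median 1857) in A/Z Htt+/+ mice, overlapping ranges, and the effects differed by -0.45 ± 0.08 (adjusted p = 0.00639, edgeR quasi-likelihood test). Ryr1, an intracellular calcium release channel (chromosome 7, 29003340 to 29125151), was at 57.3 to 107 CPM (median 63.7) and 88.2 to 162 CPM (median 131) in V and A/Z carriers and at 128 to 168 CPM (median 141) and 110.5 to 179 CPM (median 156) in V and A/Z Htt+/+ mice. Carriers of both series overlapped at 1 end, and the effects differed by -0.76 ± 0.16 (adjusted p = 0.0257, edgeR quasi-likelihood test), a call that was lost when any 1 of 8 libraries was left out.

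Other genes of this group have roles outside neuronal signalling. Clspn, which encodes the DNA replication checkpoint protein claspin (chromosome 4, 126556935 to 126593903), was at 14.5 to 26.0 CPM (median 19.1) in V carriers against 21.5 to 43.8 CPM (median 40.6) in A/Z carriers, and at 27.0 to 45.5 CPM (median 35.7) and 37.5 to 46.8 CPM (median 40.6) in V and A/Z Htt+/+ mice. The lowest A/Z carrier was again the library with cortical markers, and the effects differed by -0.80 ± 0.12 (adjusted p = 0.00373, edgeR quasi-likelihood test). Krt9, a keratin gene (chromosome 11, 100186781 to 100193246), was at 18.4 to 25.4 CPM (median 20.9) and 24.9 to 52.1 CPM (median 40.3) in V and A/Z carriers and at 41.0 to 58.2 CPM (median 50.5) and 45.0 to 58.1 CPM (median 49.7) in V and A/Z Htt+/+ mice, so that all V carriers lay below all Htt+/+ mice. The effects differed by -0.82 ± 0.13 (adjusted p = 0.00373, edgeR quasi-likelihood test).

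Plk5, a member of the polo-like kinase family that is expressed in neurons (chromosome 10, 80356459 to 80365489), was at 8.97 to 13.6 CPM (median 12) in V carriers, 15.9 to 20.6 CPM (median 18) in A/Z carriers, 16.9 to 25.1 CPM (median 21.7) in V Htt+/+ mice and 17.6 to 24.1 CPM (median 20.8) in A/Z Htt+/+ mice. The carriers did not overlap by series, and the effects differed by -0.58 ± 0.10 (adjusted p = 0.00487, edgeR quasi-likelihood test). Lower effects in carriers were also called for Tagln, the smooth muscle protein transgelin (-0.89 ± 0.16), Phex, an endopeptidase (-1.24 ± 0.24), Dnah1, an axonemal dynein (-0.60 ± 0.11), Itga5, integrin alpha 5 (-0.48 ± 0.09), Nrep (-0.44 ± 0.09), Wwc1, the memory-associated protein KIBRA (-0.31 ± 0.06), and Erf, an ETS repressor (-0.31 ± 0.06). For Erf the difference came with a higher level in V than in A/Z Htt+/+ mice (0.24 ± 0.05) and little change in carriers (-0.07 ± 0.04). Without the library with cortical markers Dnah1 was also called higher in V than in A/Z Htt+/+ mice (0.27), beside -0.35 in carriers.

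The 3 genes with a higher effect were Nagk, Armcx6 and Vav3. Nagk, N-acetylglucosamine kinase (chromosome 6, 83794982 to 83803420), was at 25.5 to 33.3 CPM (median 28.5) in V carriers and 20.0 to 24.3 CPM (median 22.2) in A/Z carriers, which did not overlap, and at 16.7 to 25.3 CPM (median 19.7) and 18.8 to 23.1 CPM (median 21.3) in V and A/Z Htt+/+ mice, which did. The effects differed by 0.37 ± 0.08 (adjusted p = 0.0354, edgeR quasi-likelihood test). For Armcx6 they differed by 0.57 ± 0.11, at low levels of 4.23 to 5.58 CPM (median 4.82) in V carriers and 3.27 to 3.99 CPM (median 3.82) in A/Z carriers. For Vav3, a guanine nucleotide exchange factor, they differed by 0.47 ± 0.10, with a fall in V Htt+/+ mice (-0.31 ± 0.07) beside a change of 0.17 ± 0.07 in carriers that did not pass. Over all genes tested 53 (0.306%) had no overlap between V and A/Z carriers, and 5 of the 17 had none. The 17 were chosen on a contrast that holds these same carriers, so the 5 are not read against that share. Of the 17 genes, 6 (Clspn, Prkcb, Penk, Tagln, Phex and Ryr1) overlap another annotated gene, and the use of strand in counting is not given in the sources used here, so their counts may hold reads of the other gene.

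**Figure D2:**
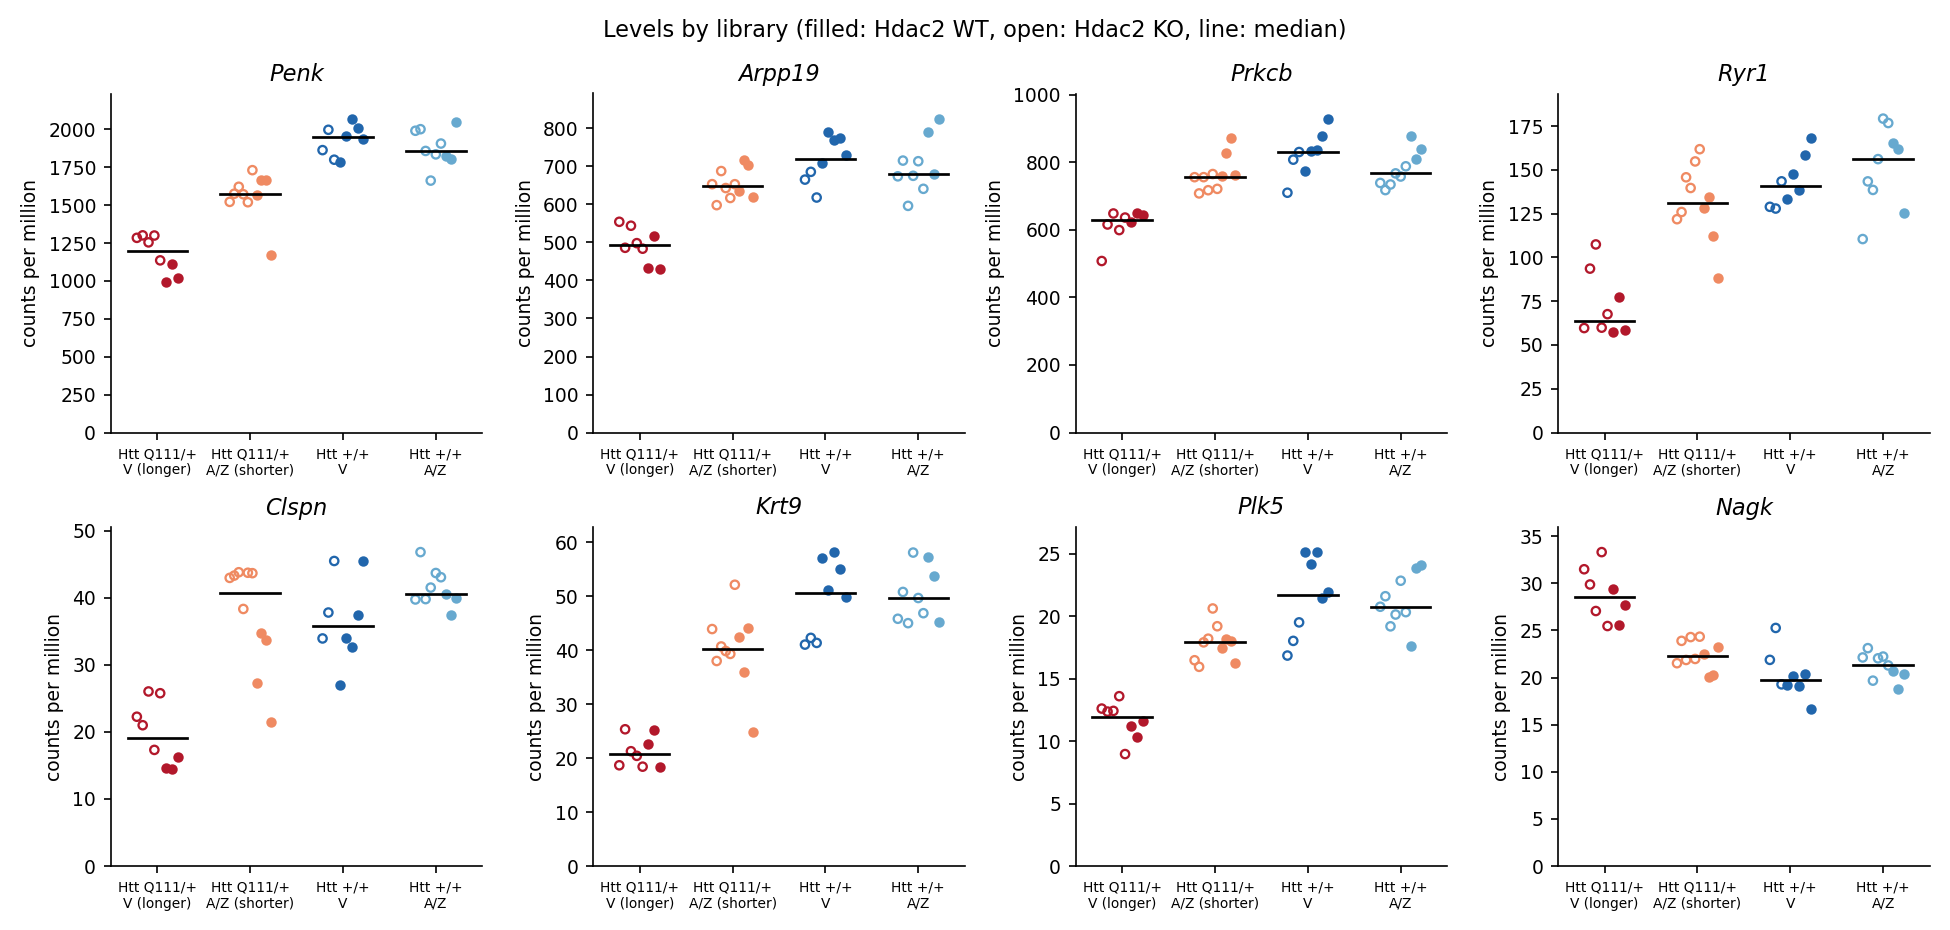
CPM of 8 of the 17 genes in each library of the 4 groups, with filled points for Hdac2 WT, open points for Hdac2 KO and a line at each group's median. For Arpp19, Prkcb and Plk5 all V carriers lie below all A/Z carriers and for Nagk above them, while the Htt+/+ groups overlap in all 8 genes.

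The A/Z carriers did not all lie above the V carriers in these genes. For the 14 lower genes, Htt Q111/+ Hdac2 WT A/Z replicate 7 was the lowest of the 10 A/Z carriers in 10 and was not above the highest V carrier in 11. The other 3 Hdac2 WT A/Z carriers were not above the highest V carrier in 5 or 6 of the 14 genes, and the 6 Hdac2 KO A/Z carriers in 1 or 2. Replicate 2 of the Hdac2 KO A/Z carriers, with 118 repeats, was the lowest in the other 4. Levels were ranked over both Hdac2 genotypes together, so these counts can hold a difference in level between Hdac2 genotypes. They do not measure the distance from V carriers of the same Hdac2 genotype. The parts of Hdac2 genotype and of the cortical markers in these values were not tested.

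The lists of striatal genes were read as counts against the share of all genes called. Of 26 genes of cAMP, calcium and G protein signalling in MSNs, 18 fell and none rose in V carriers, against 4.93% of all genes that fell. None was called in Htt+/+ mice, and 3 were called for the difference (Ryr1, Arpp19 and Prkcb). The median log2 fold change of the list was -0.26 in carriers and -0.03 in Htt+/+ mice, against medians of 0.00 over all genes in both. Further members that fell included Cnr1, the cannabinoid receptor (-0.50), Homer1, a postsynaptic scaffold (-0.55), Itpr1, the IP3 receptor (-0.30), Adcy5, the main striatal adenylyl cyclase (-0.27), and Ptpn5, the striatal phosphatase STEP (-0.29). Leaving out 1 library gave 14 to 20 falls. With extraction date as a term 3 fell in carriers, at a median of -0.23, and 4 were called for the difference. With surrogate variables 17 were called for the difference, and without the library with cortical markers 6 were.

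Of 7 tested genes of indirect-pathway MSNs, 4 fell in V carriers, as 4.93% of all genes did (Penk, Adora2a, Drd2 and the orphan receptor Gpr6) and none was called in Htt+/+ mice, with medians of -0.21 and 0.01. Of 9 entries for direct-pathway genes, 2 fell (Drd1a and the muscarinic receptor Chrm4) and Tac1 rose, with medians of 0.04 and 0.14. Of 11 ion channel genes 5 fell in carriers, among them Scn4b and the potassium channel Kcnh4 (-0.39), and none in Htt+/+ mice. When 1 library was left out 2 to 6 fell, with 2 without Hdac2 WT V replicate 5 and 3 without Hdac2 WT V replicates 3 or 4, Hdac2 WT A/Z replicate 6 or Hdac2 KO A/Z replicate 3. Of 16 transcription factors of striatal neurons 2 fell, Rxrg and Egr1, and Bcl11a rose, while Meis1 fell in Htt+/+ mice. With extraction date as a term 1 indirect-pathway gene and no channel or transcription factor of these lists fell. Fewer cells of a type and less RNA per cell cannot be told apart in tissue libraries.

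A list of 29 genes that the study picked as changed by the Htt Q111 allele was chosen partly on these libraries and is no independent evidence of direction. Of the 29, 13 fell and 4 rose in V carriers, beside 4.93% and 3.1% of all genes. In Htt+/+ mice 2 fell and 2 rose, where 2.46% of all genes were called in either direction. Without the library with cortical markers 14 fell and 6 rose in carriers, and with extraction date as a term 1 fell and 1 rose. Members that fell included Ptprv (-0.71), Inpp5j (-0.36) and Gpd1 (-0.27), and those that rose included Ptprh (0.53) and Lrrtm4, a synaptic adhesion protein (0.24). Penk was the member called for the difference.

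Of 28 immediate-early genes, which neurons transcribe soon after activity, 11 fell in V carriers, beside 4.93% of all genes, and none was called in Htt+/+ mice, with medians of -0.54 and -0.12, and none was called for the difference. Egr2, a zinc finger factor of this class, was at 1.74 to 23.6 CPM (median 9.76) in V carriers and 3.27 to 49.6 CPM (median 22.7) in A/Z carriers, and at 6.90 to 49.5 CPM (median 19.1) and 6.48 to 54.6 CPM (median 22.7) in V and A/Z Htt+/+ mice. All 4 ranges overlapped widely, and the log2 fold change in carriers was -1.68 ± 0.43 (adjusted p = 0.0133, edgeR quasi-likelihood test). Others that fell included Fosl2 (-1.46), Egr4 (-1.09) and Dusp6 (-0.54). Of the list, 1 was called in males alone, 2 with surrogate variables and 0 with extraction date as a term. Leaving out 1 library gave 5 to 13 falls, with 5 without Hdac2 WT V replicate 5, 6 without Hdac2 WT A/Z replicate 1 or Hdac2 KO V replicate 7, and 8 without the library with cortical markers.

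Genes of mismatch repair and other DNA repair can modify the instability of the CAG repeat. Of 17 such genes, 3 rose in V carriers, beside 3.1% of all genes, among them the ribonucleotide reductase subunit Rrm2b (0.16) and the flap endonuclease Fen1 (0.20). Leaving out 1 library gave 2 to 4, and none rose with extraction date as a term. Msh3, a mismatch recognition protein, was at 23.0 to 30.4 CPM (median 27.8) in V carriers and 21.4 to 30.4 CPM (median 24.5) in A/Z carriers, and Fan1, a nuclease that limits expansion, at 10.8 to 16.2 CPM (median 14.0) and 11.2 to 14.7 CPM (median 12.9). The series overlapped for both genes and neither passed (log2 fold changes 0.10 ± 0.05 and 0.15 ± 0.08). Of 12 entries for Hdac genes, 2 fell in carriers, Hdac5 (-0.22) and Hdac11 (-0.13), and none was called in Htt+/+ mice. Of 18 circadian clock genes 2 fell in carriers, Per1 and Arntl, and Arntl fell in Htt+/+ mice too. Of 26 cholesterol synthesis genes 3 fell in carriers, among them Hmgcs1 and Srebf2, and Idi1 fell in Htt+/+ mice, and of 16 heat shock genes 1 fell in carriers, Dnajb5. These counts stand beside 4.93% of all genes that fell in carriers. None of 8 developmental regulators and 20 MHC and complement genes was called in either Htt genotype.

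Markers of other cell types also moved with the series. Of 16 endothelial and mural markers, 6 fell in V carriers, beside 4.93% of all genes, and 3 in V Htt+/+ mice, with medians of -0.22 and -0.25, and their summed level was 483 to 614 CPM (median 502) in V carriers, 527 to 684 CPM (median 592) in A/Z carriers, 496 to 592 CPM (median 522) in V Htt+/+ mice and 558 to 718 CPM (median 591) in A/Z Htt+/+ mice. With 1 library left out 1 to 8 of them fell in carriers and 1 to 5 in Htt+/+ mice. The carrier count was 1 without Hdac2 WT V replicate 5, 2 without Hdac2 KO A/Z replicate 10, and 3 without Hdac2 WT A/Z replicate 1, Hdac2 KO A/Z replicate 9 or Hdac2 KO V replicates 4 or 7. The Htt+/+ count was 1 without Htt+/+ Hdac2 WT A/Z replicate 9 and 5 without carrier Hdac2 WT A/Z replicate 6. Of 12 astrocyte markers 4 fell in carriers, among them the glutamate transporters Slc1a2 (-0.34) and Slc1a3 (-0.20), of 16 oligodendrocyte markers 3, and of 14 microglia markers 2. The astrocyte markers summed to 2063 to 2557 CPM (median 2226) in V carriers and 2413 to 2803 CPM (median 2529.7) in A/Z carriers, with 2361 to 2542 CPM (median 2529) and 2428 to 2895 CPM (median 2603) in V and A/Z Htt+/+ mice. The oligodendrocyte markers summed to 5945 to 7416 CPM (median 6959.8) in V carriers and 6422 to 8979 CPM (median 7894) in A/Z carriers, with 6269 to 7782 CPM (median 7558) and 7561 to 10868 CPM (median 7877) in the Htt+/+ mice, and the microglia markers to 729 to 862 CPM (median 776) and 765 to 951 CPM (median 835) in carriers and 711 to 921 CPM (median 833) and 788 to 997 CPM (median 892) in Htt+/+ mice. All of these ranges overlapped between the series of an Htt genotype. No cortical projection neuron, choroid plexus or interneuron marker was called in carriers, out of 12, 9 and 10. In Htt+/+ mice the astrocyte marker S100b, the microglia marker Itgam and the interneuron marker Lhx8 fell. Leaving out 1 library gave 2 to 4 astrocyte, 2 to 4 oligodendrocyte and 1 to 3 microglia markers that fell in carriers, and with extraction date as a term none of these or of the endothelial and mural markers fell. No marker of these lists was called for the difference. The part of these cells in the gene changes above was not tested.

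**Figure D3:**
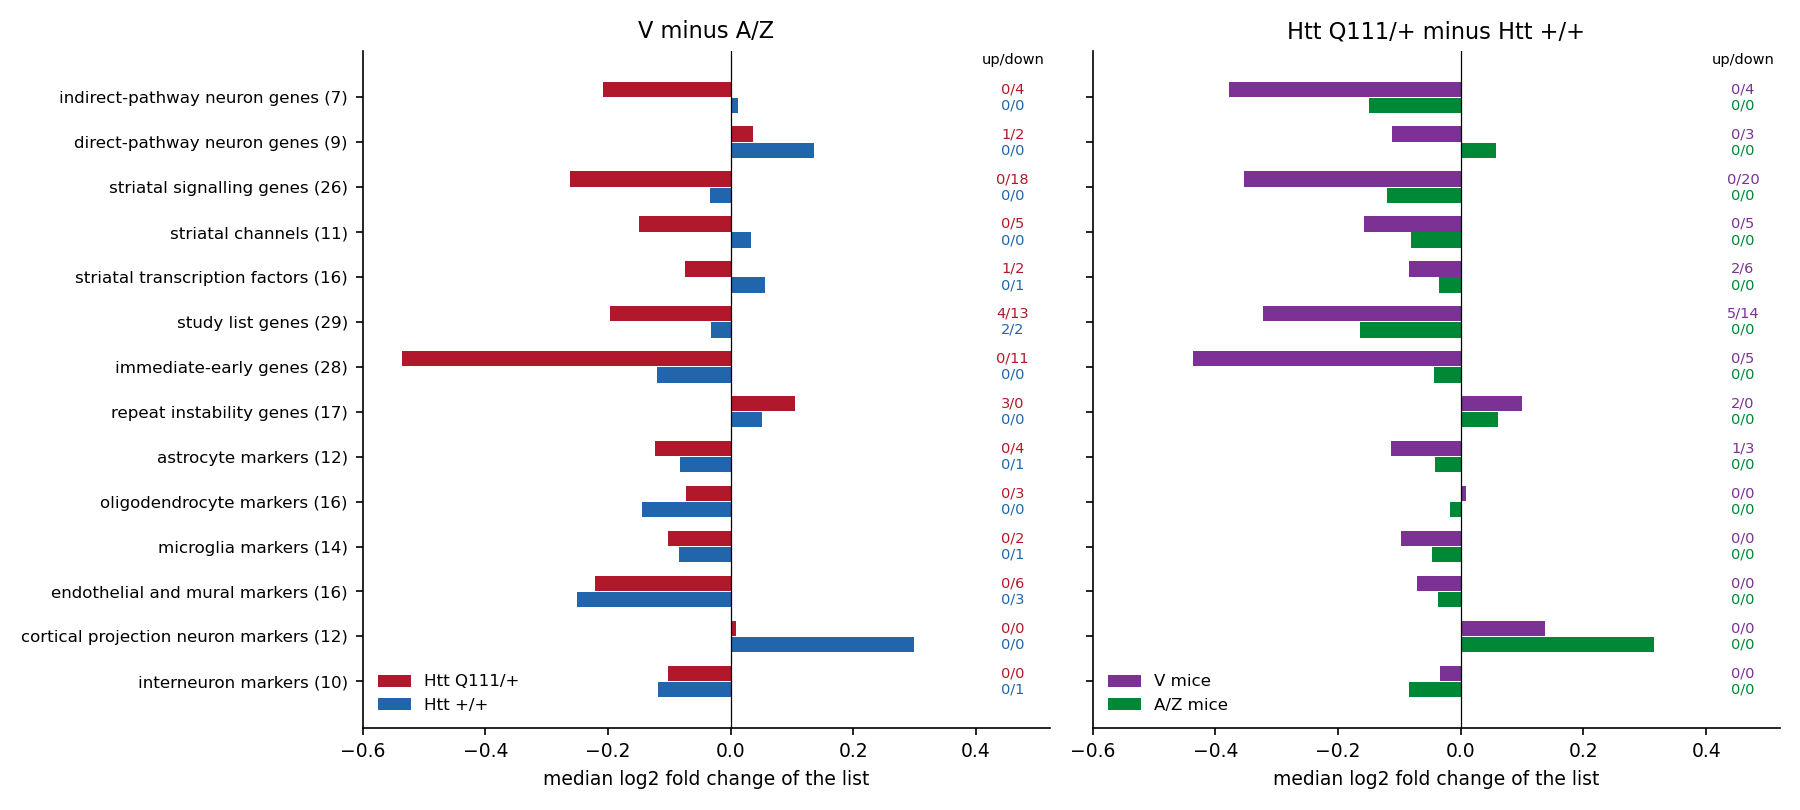
Median log2 fold change of each gene list (bars), with the number of members tested in brackets and the numbers called up and down at the right; the left panel compares V with A/Z mice within each Htt genotype and the right panel Htt Q111/+ with Htt+/+ mice within each ID series. Striatal signalling genes fell in 18 of 26 cases in V carriers and in none in Htt+/+ mice, while endothelial and mural markers had similar medians in both Htt genotypes.

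Mitochondrially encoded mRNAs differed between the series in both Htt genotypes. The share of counts from all entries of the mitochondrial chromosome, rRNAs included, was 7.74% to 9.57% (median 8.45%) in V carriers. It was 9.18% to 11.5% (median 10.1%) in A/Z carriers. In Htt+/+ mice it was 6.86% to 8.75% (median 7.80%) in series V and 9.33% to 12.1% (median 10.0%) in series A/Z. The series did not overlap in Htt+/+ mice and overlapped at 1 end in carriers. All 12 tested mitochondrial genes fell in V carriers (median log2 fold change -0.32), beside 4.93% of all genes. In V Htt+/+ mice 11 fell (median -0.40), where 2.46% of all genes were called in either direction, and none was called for the difference. The gene of a complex I subunit, mt-Nd5, was at 5718 to 8488 CPM (median 7279) and 8328 to 11826 CPM (median 9589) in V and A/Z carriers, and the log2 fold changes were -0.47 ± 0.09 in carriers and -0.57 ± 0.09 in Htt+/+ mice.

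**Figure D4:**
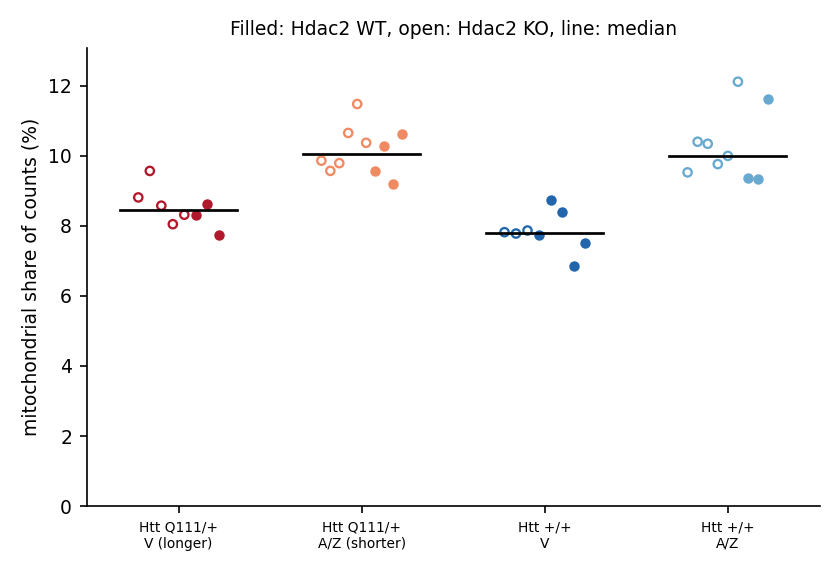
Share of counts from all mitochondrially encoded genes, rRNAs included, in each library, as percent, by group. Filled points mark Hdac2 WT, open points Hdac2 KO and a line the median. V mice of both Htt genotypes lie at 6.86% to 9.57% and A/Z mice at 9.18% to 12.1%.

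The same fit compared Htt Q111/+ with Htt+/+ mice within each ID series, a comparison chosen after seeing the data. Among V mice, 1045 genes differed (6.03%), 386 higher and 659 lower in carriers, and 692 without Htt+/+ Hdac2 KO V replicate 4. Among A/Z mice none passed (0%), with 921 genes at an unadjusted p under 0.05 (5.31%) and a smallest adjusted p of 0.0555, for Penk, by the edgeR quasi-likelihood test. DESeq2 called 14 and the fit with surrogate variables 27, and leaving out 1 library gave 0 to 5. The counts do not compare the effects, which the difference above tests, since it is the same contrast arranged by series. The 1045 genes had a median signed log2 fold change of 0.26 among V mice and 0.06 among A/Z mice, with 927 (88.7%) of the same sign. Those V carriers also enter the comparison with A/Z carriers, so no overlap is read from it.

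Penk changed by -0.74 ± 0.06 in V carriers against V Htt+/+ mice and by -0.29 ± 0.05 in A/Z carriers against A/Z Htt+/+ mice. Ppp1r1b changed by -0.42 ± 0.06 in V mice and -0.26 ± 0.05 in A/Z mice, Pde10a by -0.58 ± 0.09 and -0.16 ± 0.08, and Htt by -0.26 ± 0.05 and -0.08 ± 0.04. Of the 26 signalling genes 20 fell among V mice (median -0.35), against 3.8% of all genes that fell, and 0 among A/Z mice (median -0.12), where 24 of 26 had a fold change below 0. Of the indirect-pathway genes 4 fell among V mice and 0 among A/Z mice, at medians of -0.38 and -0.15. The median over all genes was 0.00 in both.

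Repeat length within the V carriers and within the A/Z carriers was tested as a slope per 10 repeats, averaged over both. A and Z carriers shared a slope without a term for their letter, so it can hold a difference between A and Z. The A/Z carriers with 118 repeats were both A series Hdac2 KO females of 23 weeks. No gene passed in the edgeR quasi-likelihood test. Of all genes, 2418 (13.9%) had an unadjusted p under 0.05, the smallest adjusted p was 0.0549 and DESeq2 called 50. Without Hdac2 WT A/Z replicate 1 the count was 24, without Hdac2 WT V replicate 3 it was 22, and 5 other libraries gave 1 to 9 when left out. Of the 17 genes above, 16 had an averaged slope of the same sign as their difference, though near 0 for Vav3 and Nagk. For the slope in V carriers alone it was 14 of 17, and for that in A/Z carriers alone also 14. Of the 16, 4 had an unadjusted p under 0.05, beside 13.9% of all genes (Penk, Itga5, Nrep and Ryr1, named after their values were seen). Ryr1 changed by -0.54 ± 0.13 per 10 repeats (unadjusted p = 0.000313 and adjusted p = 0.168, edgeR quasi-likelihood test), Scn4b by -0.38 ± 0.10 and Adora2a by -0.35 ± 0.10. Of the 26 signalling genes 20 had a slope below 0, with a median of -0.11 per 10 repeats, and of the 7 indirect-pathway genes 6 did (median -0.16). The median slope over all genes was -0.004. Of the 28 immediate-early genes, which fell in V carriers, 7 had a slope below 0 (median 0.17), and the list of 29 had a median of -0.01. The slopes rest on repeats of 131 to 144 in V and 110 to 118 in A/Z carriers.

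**Figure D5:**
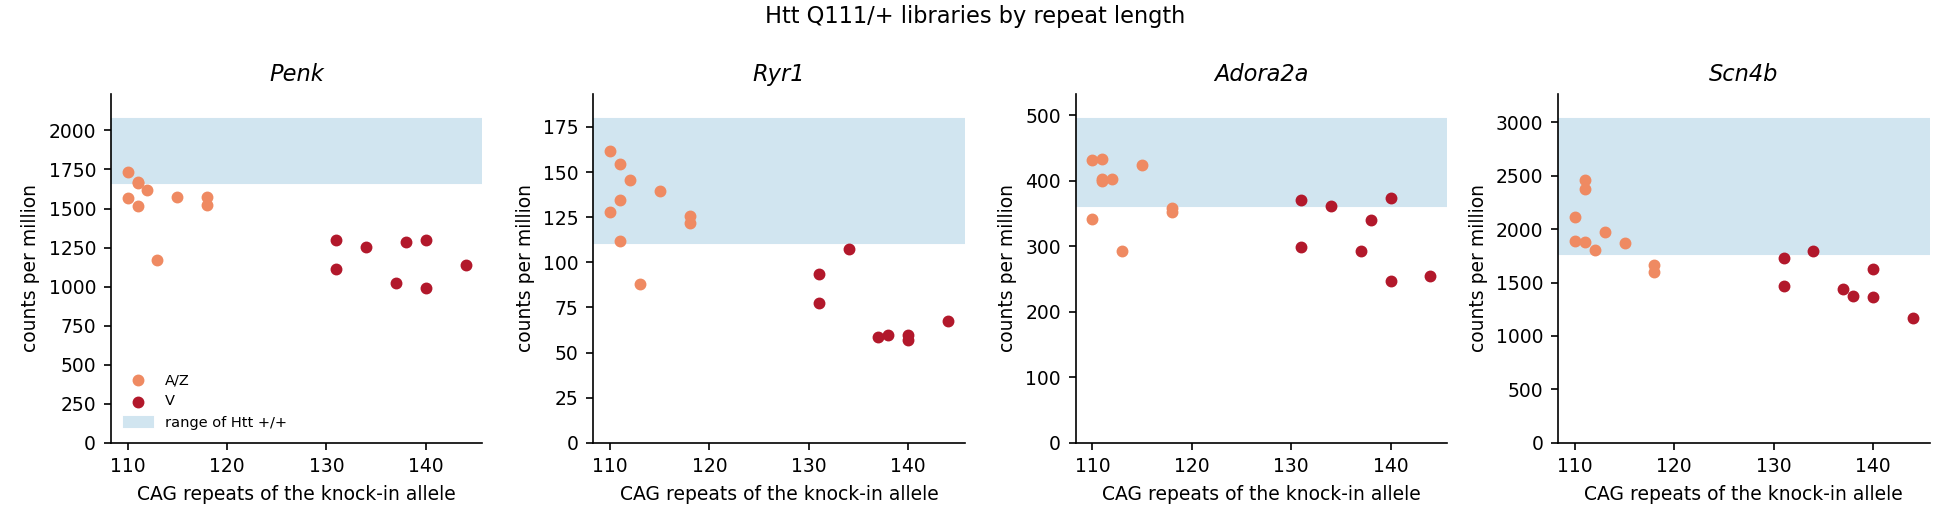
CPM of Penk, Ryr1, Adora2a and Scn4b in the 18 carriers against the CAG repeats of the knock-in allele, with A/Z carriers at 110 to 118 and V carriers at 131 to 144 repeats and the range of the 17 Htt+/+ libraries shaded. For Penk all V carriers and most A/Z carriers lie below the shaded range, and within a series the points scatter without a gene passing the test of the slope.

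The A and Z carriers, with 110 to 118 and 110 to 115 repeats, gave a difference between ID series at like repeat lengths. It called 14 genes (0.0808%), 13 higher and 1 lower in A, and 98 (0.565%) in Htt+/+ mice. In carriers the count was 9 without Hdac2 WT A/Z replicate 7, 69 without replicate 2 and 243 without replicate 6 of that group. None of the 17 genes was among the 14. With 0.0808% of all genes called this could hardly be otherwise, so nothing is read from it.

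V and A/Z carriers differed in 288 genes (1.66%) within Hdac2 WT and in 715 (4.12%) within Hdac2 KO mice, which rest on 3 against 4 and on 5 against 6 libraries. The test of the difference between those effects called 0 genes in the edgeR quasi-likelihood test, with 1937 at an unadjusted p under 0.05 (11.2%) and 19 called by DESeq2. Leaving out 1 library gave 0 to 5. Penk changed by -0.55 ± 0.08 in Hdac2 WT and -0.36 ± 0.07 in Hdac2 KO carriers, and Arpp19 by -0.54 ± 0.08 and -0.33 ± 0.06. Of the 17 genes, 10 were called in Hdac2 WT and 15 in Hdac2 KO carriers. The genes were chosen on the same carriers, so the direction is not read from this.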

How the data were processed

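Striatal mRNA of 35 mice was sequenced from stranded libraries with reads of 75 bases. The deposited values are raw read counts per gene, made by the authors with GSNAP alignments to GRCm38, SAMtools and bedtools, with FastQC and edgeR also named in the submitters' processing notes. Whether counting used strand is not given in the sources used here. Totals were 50970712 to 77867348 counts per library.

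Of 39109 entries, 92 ERCC spike-ins, 6152 genes of up to 250 bases and 2 mitochondrial rRNAs were removed and 32863 remained. A gene was tested (17335 in all) when each library of some group, out of the 4 formed by Htt genotype and ID series, had 6 counts or more. Counts were fitted with edgeR 4.0.16 (R 4.3.3, limma 3.58.1) by the quasi-likelihood test after TMM scaling, with a term for each Htt genotype and series, Hdac2 genotype and sex, 28 residual degrees of freedom and a common biological coefficient of variation of 0.115. A gene was called at a Benjamini-Hochberg adjusted p under 0.05 over all genes tested. Values after ± are standard errors of log2 fold changes, obtained from the fold change and its test statistic. Alternatives used DESeq2 1.42.0, sva 3.50.0 and other filters, covariates and samples. The fit was tested on simulated counts.

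Named genes were the 8 rises and 8 falls of largest log2 fold change in each of the first 3 comparisons whose log2 CPM averaged 1 or more, genes called in both Htt genotypes, Htt and its neighbours, the study's list of 29 and called members of gene lists, of which the text gives a selection and some are not reported here. Members and lists were chosen with earlier results of these data known. Each library came from 1 mouse, so p-values measure the spread between mice. Same replicate numbers were not taken to pair mice. The mean correlation of their deviations was 0.0857 over 45 pairs (-0.34 to 0.63), with 17 over 0.1, against -0.0073 for mice of other numbers.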

Additional observations from a re-analysis of the deposited data

Results flagged for a closer look

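Single libraries stood apart from the rest of their group in 9 of 148 group-by-measure sets examined, and chance gives about 1 in 20. In V carriers, Prkcb was at 508 CPM in Hdac2 KO V replicate 4 (nearest 599), where Hddc3 was at 29.3 CPM (nearest 17.1) and Fan1 at 10.8 CPM (nearest 13.7), and Drd2 was at 202 CPM in Hdac2 KO V replicate 6 (nearest 172). In A/Z carriers, Penk was at 1171 CPM (nearest 1519) and Tac1 at 233 CPM (nearest 313) in Hdac2 WT A/Z replicate 7, the library with cortical markers, and Vav3 was at 17.6 CPM in Hdac2 WT A/Z replicate 1 (nearest 14.6). The total count was 77867348 in A/Z carrier Hdac2 KO replicate 1 (nearest 58582674) and 50970712 in Htt+/+ Hdac2 KO A/Z replicate 9 (nearest 55319220).

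The effect of series differed between carriers and Htt+/+ mice in 17 genes by the test of the difference itself. On the log2 scale the effect in carriers minus that in Htt+/+ mice was -1.24 for Phex, -0.89 for Tagln, -0.82 for Krt9, -0.80 for Clspn, -0.76 for Ryr1, -0.60 for Dnah1, -0.58 for Plk5, -0.48 for Itga5, -0.45 for Penk, -0.44 for Nrep, -0.38 for Arpp19, -0.35 for Prkcb, -0.31 for Wwc1 and -0.31 for Erf. It was 0.57 for Armcx6, 0.47 for Vav3 and 0.37 for Nagk.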

How the results depend on the processing

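The carrier comparison called 835 genes with surrogate variables (9, the first with an r2 of 0.854 with sex) in place of sex, 132 with extraction date added, 540 in males, 553 without Z mice, 836 with only the carriers fitted and 823 to 1559 with 1 library left out. The Htt+/+ comparison called 159, 22, 41 and 163 under the first 4 of these and 224 to 508 with 1 library left out. The difference called 462 with surrogate variables, 50 by DESeq2, 1 in males, 0 without A mice and 8 to 28 with 1 library left out. With a replicate block 649 genes were called in carriers, 146 in Htt+/+ mice and 2 for Htt genotype in A/Z mice. For the difference it called 13, 10 of them among the 17. The numbers were not taken to pair the mice. The comparison of Htt genotypes called 528 genes in males and 692 to 1139 with 1 library left out among V mice, and among A/Z mice 2 without sex, 27 with surrogate variables, 14 by DESeq2, 3 without a filter, 14 without Z mice and 0 to 5 with 1 library left out. The slope called 3 genes without sex, 50 by DESeq2 and 0 to 24 with 1 library left out, the A minus Z difference 9 with only the carriers fitted, 93 by DESeq2 and 9 to 243 with 1 library left out, and the Hdac2 difference 2 without sex, 19 by DESeq2 and 0 to 5 with 1 library left out. Leaving libraries out in these 3 comparisons was chosen after seeing the data. Of the 17 genes for the difference, DESeq2 and surrogate variables each called 17, Z mice left out 5, A mice left out 0 and males 1. The log2 fold change turned sign with surrogate variables in carriers for Afap1 (0.00518), Hdac5 (0.038), Nptx2 (0.014) and Dnajb5 (0.12). The cause of these changes was not tested. Genes with fewer than 6 counts in some library of every group are not covered.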
